A study of Rattus norvegicus with 12 samples.

Results

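The expression of 36 genes of the cell cycle and of DNA replication was followed in the right lungs of 12 rats on Affymetrix arrays, where 34 of them had a probe set that names a single gene, out of 14217 such genes on the array. The genes were listed by name and function, with earlier results of these data known. Each was read from its probe set with the highest mean intensity. Of the 34 genes, 28 were bright enough to be tested. Ccne1, Ccna2, Bub1, Bub1b, Cdc20 and Aurka were too dim, and for Rrm2 and Tpx2 no such probe set was analysed here.

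The rats were Dahl salt-sensitive (SS) or Brown Norway (BN) animals, a pair of inbred strains. In each strain 3 were controls and 3 underwent HTV, a ventilation mode that the labels abbreviate and do not spell out, so the 4 groups were SS control, SS HTV, BN control and BN HTV. All groups share a body weight of 250 to 350 g, and every array, those of HTV included, is described as room air, while the sources used here do not state age, tidal volume or duration. The lung vessels were flushed with saline before freezing. Values are intensities with an arbitrary scale set per array, and a difference between groups is one of mean log2(intensity + 16), with limma's standard error (SE) and n = 3 arrays per group.

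A cell enters division through the D cyclins with Cdk4 and cyclin E with Cdk2, which release E2F factors from the retinoblastoma protein and its relatives. E2F targets then supply the Mcm helicase, the Pcna clamp and the nucleotides for DNA synthesis, and later Cdk1 with cyclin B, the Aurora and Polo kinases and their partners carry the cell through mitosis. Most cells of the adult lung are at rest, and genes of mitosis are held low in resting cells by a repressor complex that reads the cell cycle homology region, while NF-Y binds CCAAT boxes in the same promoters.

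These short motifs are shown first, because their letters were spread unevenly over the roles of these genes, which no expression value was used to find. Promoter windows of RefSeq (rat build GRCr8, 250 bases before to 50 after the start) were matched for 27 of the 36 genes. Below are the 250 bases before the start, 5′ to 3′ on the gene's strand, for 3 mitotic genes, a pair of helicase subunits, Birc5 and Pcna. Birc5 and Pcna are those that passed the test for HTV in the average over both strains, in calls that depended on single arrays. Capitals mark the CCAAT box, the cell cycle homology region with the letters TTTGAA, and an E2F class that pools TTTCGCGC with TTTGGCGC and with TTTCCCGC and also TTTGCCGC. Each was read on both strands, and matches may overlap.
Cdk1, chr20:19265043-19265292, plus strand: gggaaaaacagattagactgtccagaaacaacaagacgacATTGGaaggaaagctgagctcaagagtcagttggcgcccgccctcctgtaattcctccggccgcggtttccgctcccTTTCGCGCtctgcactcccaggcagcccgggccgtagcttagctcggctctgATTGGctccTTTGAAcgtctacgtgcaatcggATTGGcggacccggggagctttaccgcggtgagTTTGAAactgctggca
Top2a, chr10:84473094-84473343, minus strand: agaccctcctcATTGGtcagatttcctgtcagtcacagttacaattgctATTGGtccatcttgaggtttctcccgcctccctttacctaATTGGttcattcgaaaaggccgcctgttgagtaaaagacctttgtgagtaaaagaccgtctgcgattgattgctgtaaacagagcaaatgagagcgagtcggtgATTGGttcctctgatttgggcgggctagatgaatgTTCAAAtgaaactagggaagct
Mki67, chr1:199952594-199952843, minus strand: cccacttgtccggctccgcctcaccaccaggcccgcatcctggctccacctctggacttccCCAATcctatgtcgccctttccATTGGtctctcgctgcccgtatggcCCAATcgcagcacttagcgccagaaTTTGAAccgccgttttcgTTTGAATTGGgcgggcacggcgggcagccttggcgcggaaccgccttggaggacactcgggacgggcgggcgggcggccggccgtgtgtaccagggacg
Birc5, chr10:103571896-103572145, plus strand: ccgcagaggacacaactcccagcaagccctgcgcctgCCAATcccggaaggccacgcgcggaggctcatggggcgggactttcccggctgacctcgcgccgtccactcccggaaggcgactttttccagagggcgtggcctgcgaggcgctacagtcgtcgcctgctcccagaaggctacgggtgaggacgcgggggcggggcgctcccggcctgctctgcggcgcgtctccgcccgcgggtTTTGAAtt
Mcm5, chr19:13488563-13488812, plus strand: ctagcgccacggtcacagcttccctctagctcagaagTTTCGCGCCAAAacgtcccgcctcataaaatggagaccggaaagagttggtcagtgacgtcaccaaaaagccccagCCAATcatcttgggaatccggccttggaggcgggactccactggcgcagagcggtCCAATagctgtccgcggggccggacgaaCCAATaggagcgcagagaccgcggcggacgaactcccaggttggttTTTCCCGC
Mcm6, chr13:42404353-42404602, minus strand: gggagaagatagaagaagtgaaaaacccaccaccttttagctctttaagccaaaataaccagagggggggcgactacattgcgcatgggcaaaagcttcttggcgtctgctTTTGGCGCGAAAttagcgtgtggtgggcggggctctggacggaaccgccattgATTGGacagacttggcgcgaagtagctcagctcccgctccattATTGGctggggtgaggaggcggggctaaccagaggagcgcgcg
Pcna, chr3:139955821-139956070, minus strand: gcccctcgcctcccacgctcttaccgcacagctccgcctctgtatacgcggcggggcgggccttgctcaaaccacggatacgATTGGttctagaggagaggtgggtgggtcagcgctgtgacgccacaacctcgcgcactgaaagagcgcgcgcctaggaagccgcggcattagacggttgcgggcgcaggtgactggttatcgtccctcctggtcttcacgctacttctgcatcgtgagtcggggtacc

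CCAAT was found in the windows of 19 of 27 genes (70.4%), against 37.5% of all 33469 promoters of the table. TTTGAA was found in 10 of the 14 genes of the S, G2 and M phases and of division (71.4%), in 1 of 9 genes of replication and nucleotide supply (Mcm2, 11.1%), and in 18.3% of all promoters. The E2F class had the opposite distribution. It was found in 6 of the 9 genes of replication and nucleotide supply (66.7%), in 1 of the 14 later genes (Cdk1, 7.14%) and in 2.14% of all promoters. In the sequences above, Cdk1 holds all 3 kinds of motif, while Mcm5 and Mcm6 hold E2F and CCAAT letters with no TTTGAA. Mki67, Top2a and Birc5 hold CCAAT and TTTGAA. The Pcna window holds a single CCAAT, on its other strand, and no letters of the other 2 kinds. In the 250 bases before the start alone, TTTGAA was in 7 of 14 later genes (50%) and the E2F class in 5 of 9 genes of replication and nucleotide supply (55.6%). These matches are letters in a window and were set against no binding data.

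Across the series, the trimmed mean was 150 on every array and median intensities lay between 58.5 and 68.1. SS control 3 stood apart, with a weight of 0.287 in a fit that weights arrays by their spread, against 0.621 to 1.97 for the others. At 5 of 17 genes that part BN from the other 5 SS arrays by over 2 log2 units, it lay nearer the BN mean. No batch or pairing is stated. In the sample titles the animal numbers of SS control 3 and SS HTV 3 are adjacent and set off from those of the other SS rats, without a reason given.

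Few of these genes were called for HTV, and the share of all tested genes is given beside each count. In SS lungs, limma with Benjamini-Hochberg adjustment over all probe sets called 0 of 28, where 3.91% of all 10554 tested genes rose and 4.1% fell. At an unadjusted p below 0.05 there were 3 of 28 (Birc5, Ube2c and Ccnd3), against 25.3% of all genes. In BN lungs 1 of 28 rose, Pcna, against 2.98% of all genes, and 0 fell, against 2.66%. At an unadjusted p below 0.05 there were 3 of 28 in BN, Pcna, Plk1 and Prc1, each higher, against 19.7% of all genes. In the average over both strains 2 of 28 rose, Pcna and Birc5, where 6.84% of all genes rose, and 0 of 28 fell, where 8.66% did. There 5 of 28 had an unadjusted p below 0.05, each higher, against 30% of all genes. Without SS control 3, Prc1 was called in the average as well (0.46 ± 0.14, adjusted p = 0.0436). Plk1 had an average of 0.33 ± 0.11 with all arrays (limma adjusted p = 0.059) and was called in 5 of 22 alternatives. In bulk lung, fewer cells of a type and less RNA per cell cannot be told apart.

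Small positive differences were common among the genes that were not called. The median HTV difference of the 28 genes was 0.14 in SS and 0.11 in BN, where the medians over all tested genes were -0.01 and -0.04. The estimate was positive in both strains for 15 of 28 genes (53.6%), against 28.4% of all tested genes, and negative in both for Ccnd2 and Mcm7. That count rested on BN HTV 2, without which it was 7 of 28 (25%, against 27.3% of all genes), and without SS control 3 it was 18 of 28. The BN median was -0.05 without BN HTV 2, 0.22 without BN HTV 1 and 0.27 without BN HTV 3. The SS median was lowest when SS HTV 3 was left out (0.06) and highest when SS HTV 2 was (0.25). Leaving out an SS control gave 0.09 for replicate 1, 0.08 for replicate 2 and 0.19 for replicate 3.

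**Figure D1:**
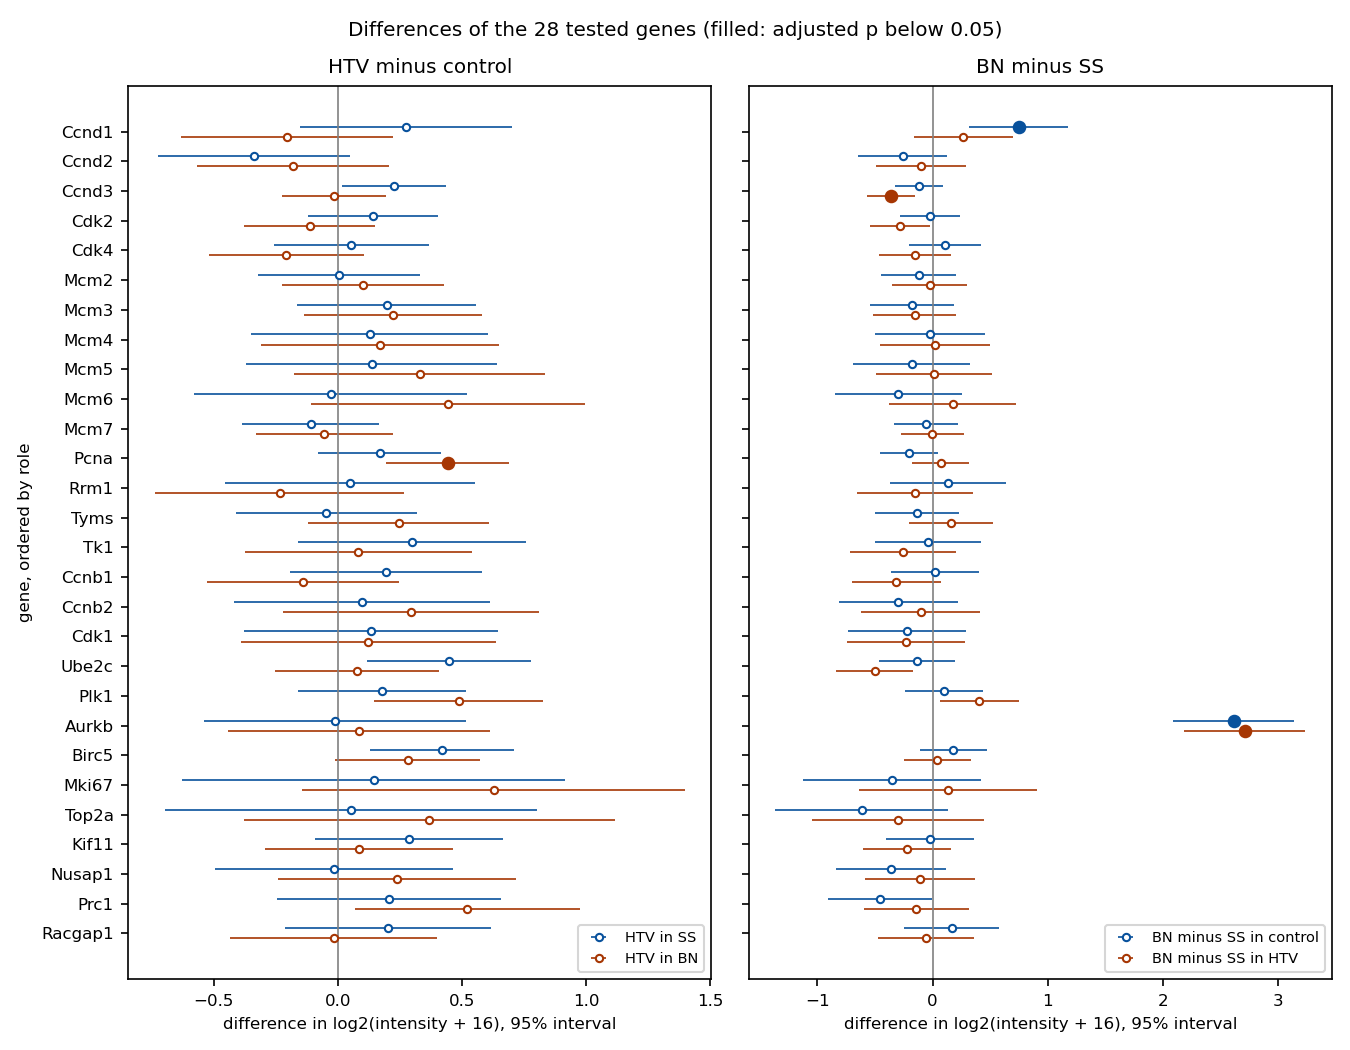
Differences in log2(intensity + 16) with 95% intervals for the 28 tested genes, ordered by role. The left panel gives HTV minus control in SS and BN, and the right panel BN minus SS in control and HTV lungs, with filled points where the adjusted p was below 0.05. Most HTV estimates lie right of 0 with intervals that cross it, only Pcna in BN is filled on the left, and Aurkb stands beyond 2 on the right.

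Pcna, the sliding clamp that holds DNA polymerases on their template, had intensities of 631.7, 678.1 and 623.9 in BN control and 814.8, 1009.3 and 831.5 in BN HTV. The groups did not overlap. It rose by 0.44 ± 0.12 (SE; 1.36-fold; limma adjusted p = 0.0405), with 3 of 3 BN HTV arrays above every BN control. In SS the values were 651.6, 732.5 and 864.6 in control and 820.7, 809.6 and 888.5 in HTV. These groups overlapped through SS control 3, and the difference was 0.17 ± 0.12 (adjusted p = 0.382). The BN call was fragile, since it was kept when SS control 1 or SS control 3 was left out and lost without any of the other 10 arrays, with adjusted p from 0.0162 to 0.149 over all alternatives. In the average over strains Pcna rose by 0.31 ± 0.08 (adjusted p = 0.0222), and that call was lost without BN HTV 2, BN control 1, BN control 3 or SS HTV 3.

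Birc5 encodes survivin, a partner of Aurora B at the chromosomes and an inhibitor of apoptosis. It was the only one of the 28 genes whose HTV arrays lay above all controls in both strains, as 4.47% of all tested genes did. In SS its intensity was 41.2, 46.1 and 46.1 in control and 70.0, 61.7 and 63.2 in HTV. In BN it was 55.3, 52.8 and 49.4 in control and 60.5, 83.4 and 59.7 in HTV. The differences were 0.42 ± 0.14 in SS (adjusted p = 0.0741) and 0.28 ± 0.14 in BN (adjusted p = 0.268), and the average rose by 0.35 ± 0.10 (adjusted p = 0.024). The average was no longer called without BN HTV 2, BN control 3 or SS HTV 1, and the SS difference was called without BN HTV 2 (adjusted p = 0.0474). Birc5 was dim, with an SS control mean of 44.5 where the limit for testing was about 42.2. With the filter at the 60th percentile it was not tested.

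Other genes parted control from HTV in 1 strain without passing the test. Arrays did not overlap upward in SS for 3 of 28 genes (Birc5, Ube2c and Ccnd3; 14.1% of all tested genes) and downward for 0 of 28 (16.6%). In BN 3 of 28 did not overlap upward (Pcna, Birc5 and Plk1; 10.4%) and 1 of 28, Ccnd2, downward (16.2%). Ube2c, the ubiquitin-conjugating enzyme of the anaphase-promoting complex, had 52.5, 65.8 and 57.5 in SS control and 91.6, 73.9 and 92.5 in SS HTV, a difference of 0.45 ± 0.15 (adjusted p = 0.0891). In BN its arrays overlapped, at 44.1 to 57.3 in control and 45.3 to 69.0 in HTV. Plk1, the Polo kinase of mitotic entry, had 45.5, 58.1 and 57.5 in BN control and 79.3, 95.4 and 70.9 in BN HTV, a difference of 0.49 ± 0.16 (adjusted p = 0.0955). Its SS arrays overlapped, at 40.6 to 58.2 in control and 47.0 to 64.9 in HTV.

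**Figure D2:**
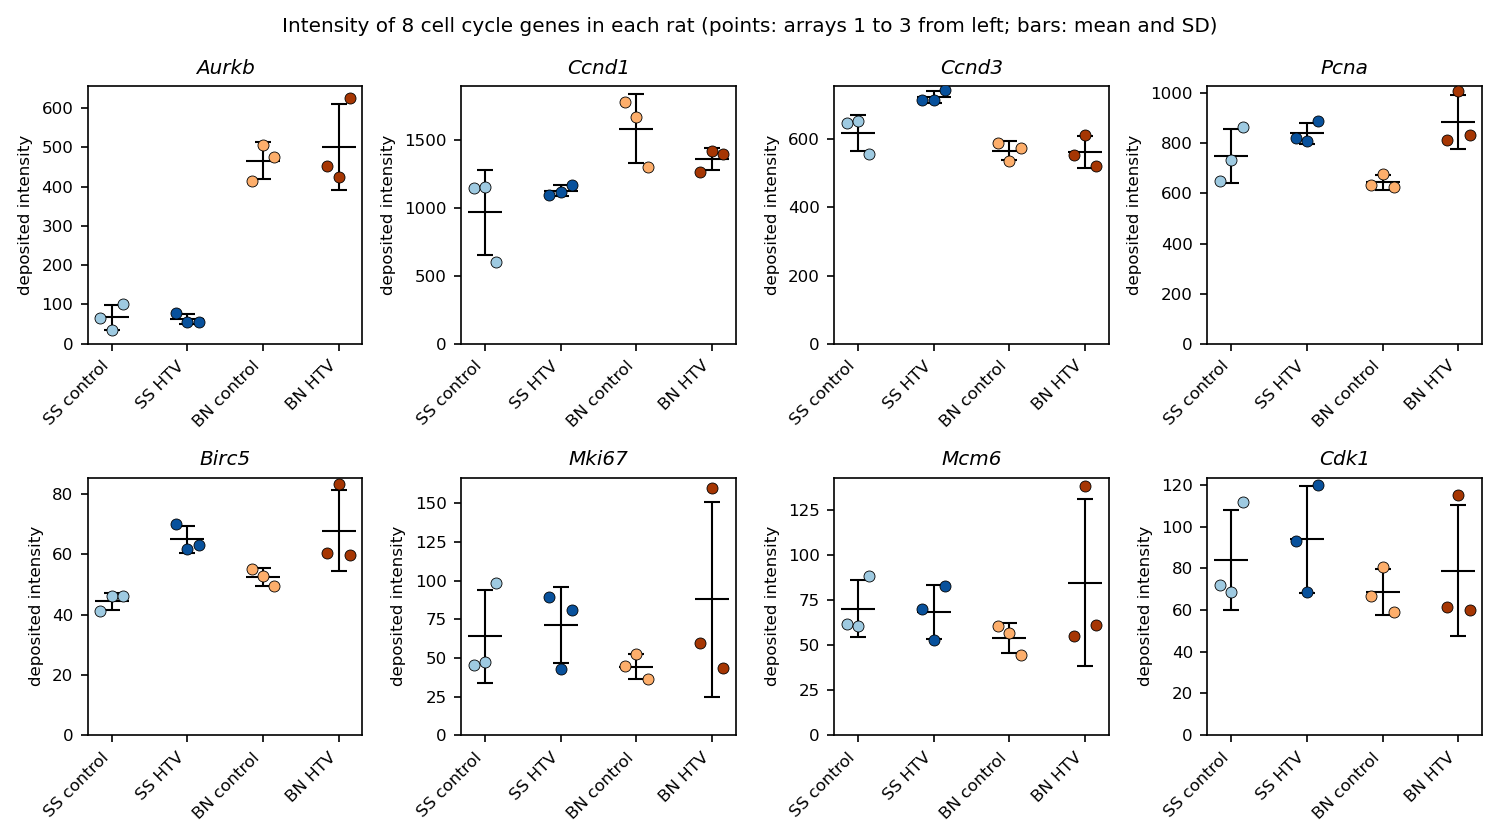
Deposited intensity of Aurkb, Ccnd1, Ccnd3, Pcna, Birc5, Mki67, Mcm6 and Cdk1 in each of the 12 rats by group, on axes that start at 0. Points are arrays 1 to 3 from left to right, and bars are the mean and SD of 3 arrays. Aurkb parts the strains, Birc5 parts control from HTV in both, and the BN HTV bars of Mki67 and Mcm6 are stretched by array 2.

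Among the G1 genes, the D cyclins Ccnd1, Ccnd2 and Ccnd3 and their kinase Cdk4 start the cycle, and Cdk2 follows with cyclin E. None of the 5 tested was called for HTV, and only Ccnd3 in SS had an unadjusted p below 0.05. The BN estimate was negative for all 5, from -0.21 to -0.02. In SS 4 of 5 were positive, and 3 of 5 without SS control 3, where Ccnd1 went from 0.27 ± 0.20 to -0.03 ± 0.12. The limma interaction called none of them, at an adjusted or an unadjusted p below 0.05. Ccnd3 had 646.5, 652.3 and 555.8 in SS control against 714.2, 713.9 and 744.8 in SS HTV (0.23 ± 0.10, adjusted p = 0.166; 0.15 ± 0.09 without SS control 3), and it lay between 520.2 and 612.1 in all 6 BN arrays. Ccnd2 had 476.0, 496.9 and 521.2 in BN control and 444.1, 403.9 and 466.9 in BN HTV (-0.18 ± 0.18, adjusted p = 0.641). In SS, Ccnd2 was spread from 418.6 to 802.5 in control, with SS control 3 highest, and from 403.7 to 509.3 in HTV. Its SS estimate was -0.34 ± 0.18 (limma adjusted p = 0.256). Without SS control 2 this fall was called, and without SS control 3 it was -0.13 ± 0.16.

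The replication genes encode the 6 subunits of the Mcm helicase and Pcna, and apart from Pcna none was called by limma in any comparison or reached an unadjusted p below 0.05. Their HTV estimates in BN ran from -0.05 for Mcm7 to 0.44 for Mcm6 and in SS from -0.11 for Mcm7 to 0.20 for Mcm3. Mcm6 had 60.4, 56.9 and 44.3 in BN control and 55.1, 138.2 and 61.1 in BN HTV. The BN HTV mean was raised by array 2, while the other 2 arrays lay within or just above the control range. Mcm4 and Mcm5 had the same shape, with 210.4 and 133.8 in BN HTV 2 against no more than 148.8 and 91.6 on any other array. Mcm7 varied least of the helicase subunits, from 230.0 to 302.7 over the 12 arrays.

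For nucleotide supply, Rrm1 (the large subunit of ribonucleotide reductase), Tyms (thymidylate synthase) and Tk1 (thymidine kinase) were tested, and none was called by limma or reached an unadjusted p below 0.05 in any of the 6 comparisons. Tk1 ranged from 49.1 on BN HTV 3 to 104.9 on SS HTV 3, with 103.6 on BN HTV 2. Its differences were 0.30 ± 0.21 in SS and 0.08 ± 0.21 in BN (adjusted p = 0.399 and 0.883). Rrm1 reached 193.3 on BN control 2 and had its lowest value, 93.2, on BN HTV 1.

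The later genes were dim and uneven. Cdk1, the kinase of mitotic entry, had 72.2, 68.4 and 111.8 in SS control, 93.2, 68.7 and 119.9 in SS HTV, 66.6, 80.7 and 59.0 in BN control, and 61.6, 115.3 and 59.9 in BN HTV. The 4 groups overlapped, and the range within 3 of them was wider than any difference between group means (HTV 0.13 ± 0.24 in SS and 0.12 ± 0.24 in BN, adjusted p = 0.756 and 0.836; 0.32 ± 0.25 in SS without SS control 3). Ccnb1 and Ccnb2, the B cyclins that activate Cdk1, ranged from 36.2 to 82.5 and from 25.9 to 74.1. Of the spindle and division genes, Kif11 (a motor that separates spindle poles), Nusap1 (a microtubule-binding protein), Prc1 (a bundler of the central spindle), Racgap1 (a partner of cytokinesis), Top2a (the topoisomerase that untangles chromosomes) and Mki67 (the Ki-67 proliferation marker) were all tested, and none was called by limma. On the brightest probe sets, Prc1 came nearest and was alone among them in reaching an unadjusted p below 0.05. It had 132.5, 91.2 and 92.1 in BN control and 114.9, 199.1 and 165.2 in BN HTV (0.52 ± 0.21, adjusted p = 0.183). A dimmer probe set of Nusap1 came nearer, at 0.56 ± 0.19 for HTV in BN and 0.38 ± 0.13 in the average (limma adjusted p = 0.112 and 0.0711). The brightest Nusap1 probe set gave 0.24 ± 0.22 and 0.11 ± 0.16 there (adjusted p = 0.614 and 0.674).

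Mki67 had 45.5, 47.5 and 98.7 in SS control, 89.5, 43.0 and 81.2 in SS HTV, 44.7, 52.4 and 36 in BN control, and 59.9, 159.9 and 43.7 in BN HTV. The 4 highest values were those of BN HTV 2, SS control 3, SS HTV 1 and SS HTV 3, and no BN control was among them. Top2a had 81.5, 64.2 and 138.7 in SS control, 102.3, 60.9 and 132.8 in SS HTV, 59.7, 55.0 and 46.6 in BN control, and 67.1, 144.1 and 38.5 in BN HTV. SS control 3 and BN HTV 2 were again the highest of their groups, and SS HTV 2 the lowest of its group.

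This shared order ran through most of the genes, as the heat map by array shows. BN HTV 2 was the highest of its group for 26 of 28 genes and the highest of all 12 arrays for 12, where it was highest of its group for 37.7% of all tested genes and highest of 12 for 12.4%. SS HTV 3 was the highest of its group for 19 of 28 and SS control 3 for 17 of 28, against 30.5% and 39.0% of all tested genes. BN HTV 1 was the highest of its group for none of the 28.

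**Figure D3:**
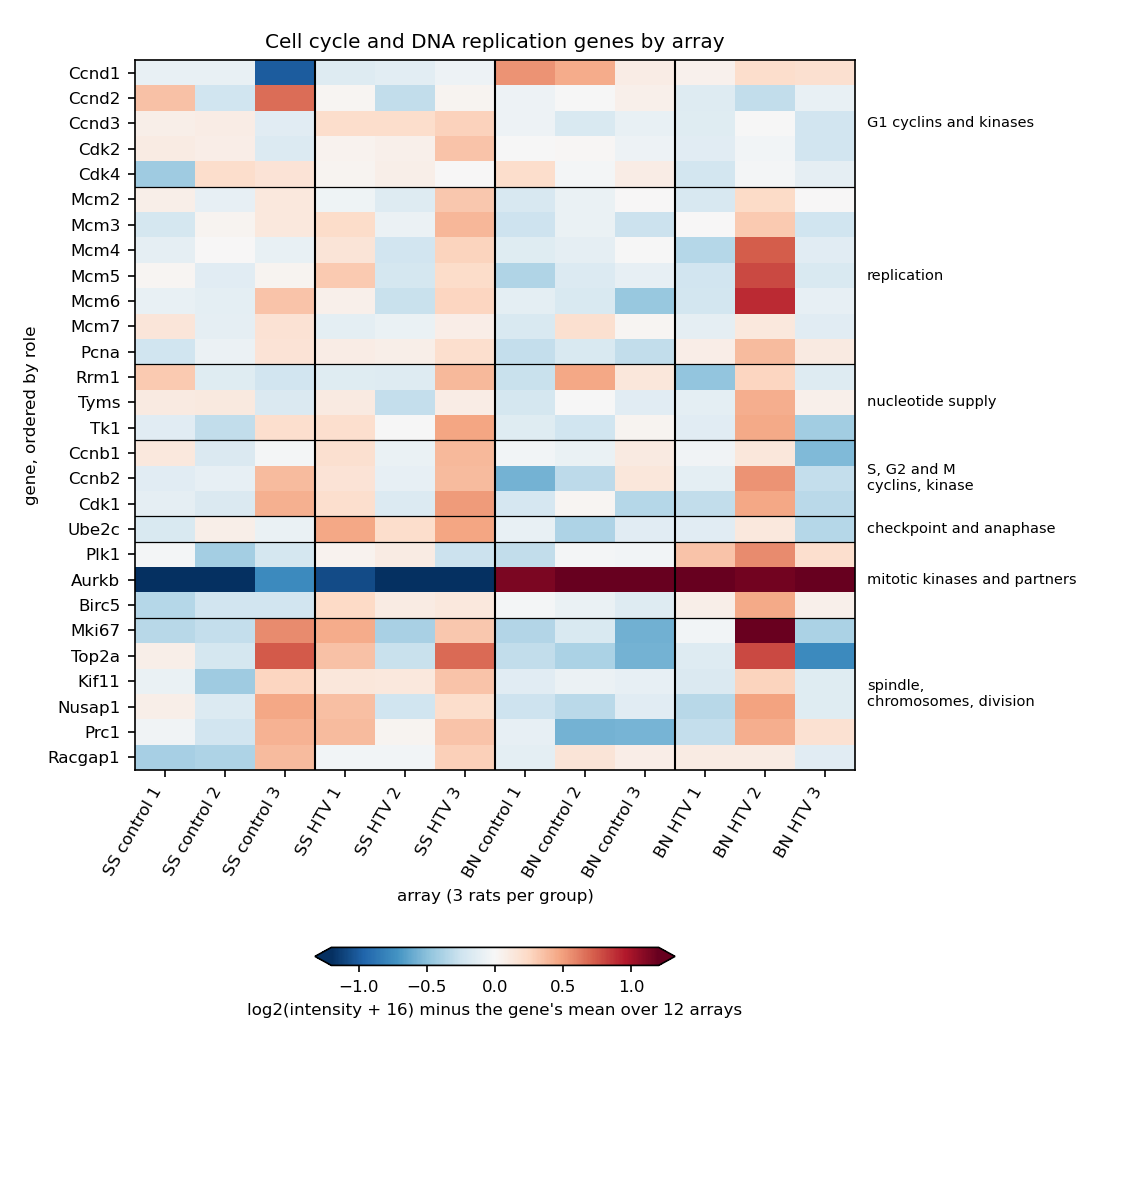
Each of the 28 tested genes (vertical, ordered by role) on each of the 12 arrays (horizontal, 3 per group), coloured by log2(intensity + 16) minus that gene's mean over 12 arrays, on a scale clipped at 1.2. SS control 3, SS HTV 3 and BN HTV 2 are warm from the Mcm genes down to Racgap1 for most genes, and Aurkb is blue in all 6 SS arrays and red in all 6 BN arrays.

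After the group means were removed, the median correlation over the 378 pairs of genes was 0.45 across the 12 arrays, with 317 pairs above 0, while over all pairs of tested genes it was 0.0018. These arrays are shared by every pair, so the values describe these 12 lungs. The 23 genes of replication, nucleotide supply and mitosis had a median of 0.60. Cdk1, Top2a and Mcm6 followed Mki67 at 0.94, 0.95 and 0.93, Birc5 and Pcna at 0.85 and 0.84, and Plk1 and Aurkb at 0.25 and 0.15. The 5 G1 genes had a median of -0.28 among themselves and of 0.14 with the other 23. Without BN HTV 2 the medians were 0.30 for all 28 genes, 0.40 for the 23, -0.28 among the G1 genes and -0.09 between G1 and the others. Without SS control 3 they were 0.55, 0.63, 0.08 and 0.26, so the sign among the G1 genes rested on that array. Without both arrays they were 0.31, 0.38, 0.04 and 0.12.

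**Figure D4:**
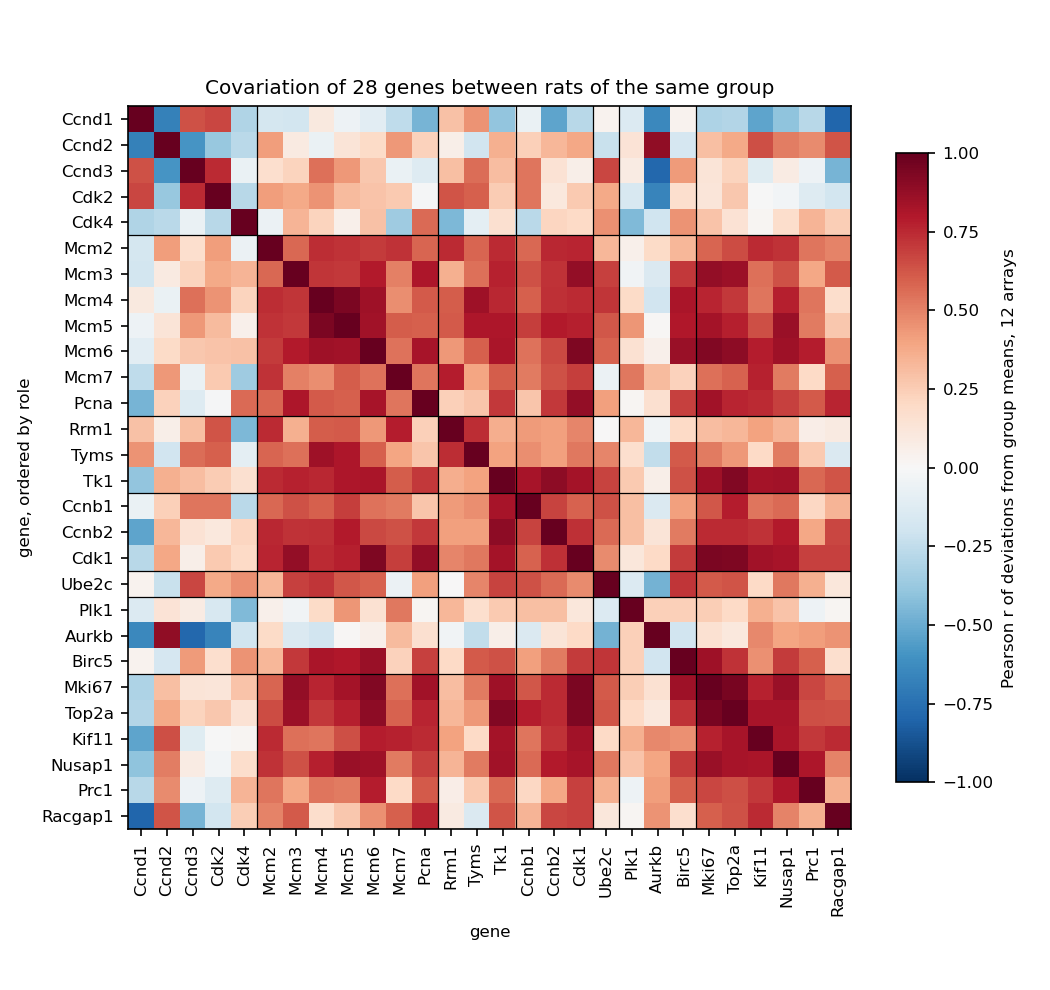
Pearson correlations between the 28 tested genes over 12 arrays after each group's mean was subtracted, ordered by role on both axes. The block of 23 genes from Mcm2 to Racgap1 is mostly red (median 0.60), apart from the lines of Plk1 and Aurkb inside it, and the lines of the 5 G1 genes are mixed.

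Other measures also differed between these arrays. The mean of 4 erythroid and platelet markers, relative to their mean over 12 arrays, was 0.42 on SS control 3, 1.04 and 0.85 on SS HTV 1 and SS HTV 3 and 0.51 on BN HTV 2, against -1.08 to 0.30 on the other 8 arrays. Summed intensity of the 6 measured markers of that list of 8 ranged over 1206 to 5195 in SS control, 3424 to 5240 in SS HTV, 882.2 to 2984 in BN control and 2852 to 4481 in BN HTV, and none was at 0 on any array. Summed intensity of the 8 neutrophil markers was 1986 to 2415 in SS control and 5793 to 9477 in SS HTV, 1175 to 2505 in BN control and 3135 to 12310 in BN HTV, with none at 0. On SS control 3, Hbb (4547.7) was above every other array, while the platelet genes Pf4 (241.8) and Itga2b (60.3) were below every SS HTV array. The 10 tested T and NK markers had a mean of 0.59 and 0.57 on SS control 1 and 2 and of -0.57 on BN HTV 2. The 8 type 2 epithelial markers had a mean of 0.36 on BN HTV 2, 0.10 on SS control 3, 0.08 on SS HTV 1 and -0.24 on SS HTV 3. The 5 tested cardiac muscle markers of lung veins had 2.28, -1.64, 0.35 and -2.15 on these arrays. The log2 ratio of 5-prime to 3-prime beta-actin signal ran from -1.47 on BN control 2 to -0.23 on SS control 2. It was -1.41 on SS control 3, -1.36 on BN HTV 3, -1.26 on BN HTV 2, -1.02 on SS HTV 1 and -0.40 on SS HTV 3. The same ratio for Gapdh ran from -0.66 on BN control 2 to -0.05 on SS control 1. It was -0.66 on SS control 3, -0.55 on BN HTV 3, -0.62 on BN HTV 2, -0.55 on SS HTV 1 and -0.13 on SS HTV 3. The part of these cells and of RNA quality in the values of the cell cycle genes was not tested.

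Between the strains, Aurkb differed far more than the other 27 genes. It encodes Aurora B, the kinase of the chromosomal passenger complex that corrects kinetochore attachments. In SS lungs its intensity was 66.3, 34.6 and 99.8 in control and 77.2, 55.5 and 54.8 in HTV. In BN lungs it was 414.0, 506.2 and 475.3 in control and 451.9, 423.1 and 626.2 in HTV. The lowest BN array lay above every SS array in each condition.

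Aurkb was higher in BN by 2.61 ± 0.24 in control lungs (6.12-fold, 95% interval 4.24 to 8.82; limma adjusted p = 3.5e-05) and by 2.71 ± 0.24 in HTV lungs (6.54-fold, 4.54 to 9.43; adjusted p = 2.8e-05). By size these differences ranked 12 and 9 among the 10554 tested genes. The call was kept in all 24 alternatives in both conditions. HTV left no detectable change, at -0.01 ± 0.24 in SS and 0.09 ± 0.24 in BN (95% intervals -0.54 to 0.52 and -0.44 to 0.61). SS control 3 had the highest SS value, and without it the control difference was 2.89. Aurkb was read by a single probe set, whose probe sequences were not set against either strain's genome, so these are differences in intensity. Its partner Birc5 differed between the strains by 0.18 ± 0.14 in control and 0.04 ± 0.14 in HTV lungs (adjusted p = 0.399 and 0.902).

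In control lungs 2 of 28 genes were higher in BN, Aurkb and Ccnd1, where 5.14% of all tested genes were higher, and 0 of 28 were lower by limma, where 5.83% were. At an unadjusted p below 0.05 there were 3 of 28, against 27.1% of all genes, with Prc1 the lower one (-0.46 ± 0.21, and -0.27 ± 0.21 without SS control 3). In HTV lungs 1 of 28 was higher, Aurkb (3.22% of all genes), and 1 lower, Ccnd3 (3.95%). In HTV lungs 5 of 28 had an unadjusted p below 0.05 (Aurkb and Plk1 higher, Ccnd3, Cdk2 and Ube2c lower), against 21.6% of all genes. All 6 BN arrays were apart from all 6 SS arrays for 2 of 28, again Aurkb and Ccnd1, and for 6.77% of all genes. The median strain difference of the 28 genes was -0.12 in control and -0.10 in HTV lungs, against 0.01 and -0.01 over all genes, and the HTV median ran from -0.30 without BN HTV 2 to 0.03 without BN HTV 1.

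Ccnd1, cyclin D1, had 1147.6, 1150.6 and 604.5 in SS control and 1781.6, 1668.7 and 1298.1 in BN control on its brightest probe set, so the groups did not overlap and SS control 3 was lowest. It was higher in BN by 0.75 ± 0.20 (adjusted p = 0.028), and by 0.44 without SS control 3 (adjusted p = 0.0329). The call was lost without BN control 1 or BN control 2. In HTV lungs the values were 1092.8, 1117.3 and 1169.5 in SS and 1265.9, 1418.8 and 1395.3 in BN, with no overlap and a difference of 0.27 ± 0.20 (adjusted p = 0.459).

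The other 2 probe sets of Ccnd1 did not show this. Their control differences were 0.30 ± 0.18 (adjusted p = 0.285) and -0.05 ± 0.12 (adjusted p = 0.806), and over the mean of the 3 probe sets the call was lost. For HTV they disagreed too. The dimmest of the 3 fell in BN by 0.65 ± 0.18 on the log2 scale (adjusted p = 0.0498), from 380.0, 342.6 and 257.7 in control to 208.7, 144.8 and 262.6 in HTV, where the brightest gave -0.21 ± 0.20 (adjusted p = 0.63). A direction for Ccnd1 therefore depends on the probe set.

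Ccnd3 in HTV lungs was 714.2, 713.9 and 744.8 in SS and 552.3, 612.1 and 520.2 in BN, which did not overlap. It was lower in BN by 0.36 ± 0.10 (a log2 difference of -0.36, adjusted p = 0.0364), against -0.12 ± 0.10 in control lungs (adjusted p = 0.439). The HTV call was lost without BN HTV 1, BN HTV 3, BN control 3 or any of the 3 SS HTV arrays, with adjusted p from 0.0121 to 0.21 over the alternatives. The size of the HTV response did not differ detectably between strains for any of the 28 genes. The interaction test in limma called 0 of 28, and 0% of all tested genes, with 0 of 28 at an unadjusted p below 0.05, where 8.55% of all genes were. The interaction estimates ran from -0.48 for Ccnd1 to 0.48 for Mki67, with SE of 0.28 and 0.51.

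The genes around this machinery were read from 5 further lists, also chosen with earlier results of these data known. Among 16 tested brakes of the cycle, 9 rose and 2 fell with HTV in the average over strains, with a median of 0.38 against -0.02 over all tested genes; of all tested genes, 6.84% rose and 8.66% fell. In SS 4 of 16 rose and 2 fell (3.91% and 4.1% of all genes), and in BN 5 rose and 1 fell (2.98% and 2.66%). Cdkn1a, the p21 inhibitor of cyclin-dependent kinases, had 348.0, 262.0 and 206.8 in SS control and 1440.2, 1393.9 and 999.4 in SS HTV, and 170.4, 215.5 and 175.8 in BN control and 534.7, 714.9 and 468.0 in BN HTV. No array overlapped, and Cdkn1a rose by 2.18 ± 0.20 in SS (adjusted p = 4.81e-05) and 1.52 ± 0.20 in BN (adjusted p = 0.000671). Gadd45a, a growth-arrest gene of the DNA damage response, rose by 0.93 ± 0.14 in the average, and Wee1, the kinase that holds Cdk1 inactive, by 0.91 ± 0.18 (adjusted p = 0.000665 and 0.00494). Ccng2, an atypical cyclin linked to arrest, fell by 0.81 ± 0.13 on the log2 scale (adjusted p = 0.00108), at 331.3, 368.1 and 435.7 in SS control against 200.4, 275.3 and 165.8 in SS HTV. These 4 averaged calls were kept in all alternatives.

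Relatives in the Gadd45 family differed by strain in which comparison passed. Gadd45g rose in SS by 1.02 ± 0.16 (adjusted p = 0.00189) and was 0.02 ± 0.16 in BN, and Gadd45b rose in BN by 0.99 ± 0.21 (adjusted p = 0.0146) and was 0.27 ± 0.21 in SS. The test of the difference itself did not pass for either (interaction adjusted p = 0.528 and 0.578). The Gadd45b call was lost without BN HTV 1, BN HTV 2, BN control 2 or BN control 3.

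**Figure D5:**
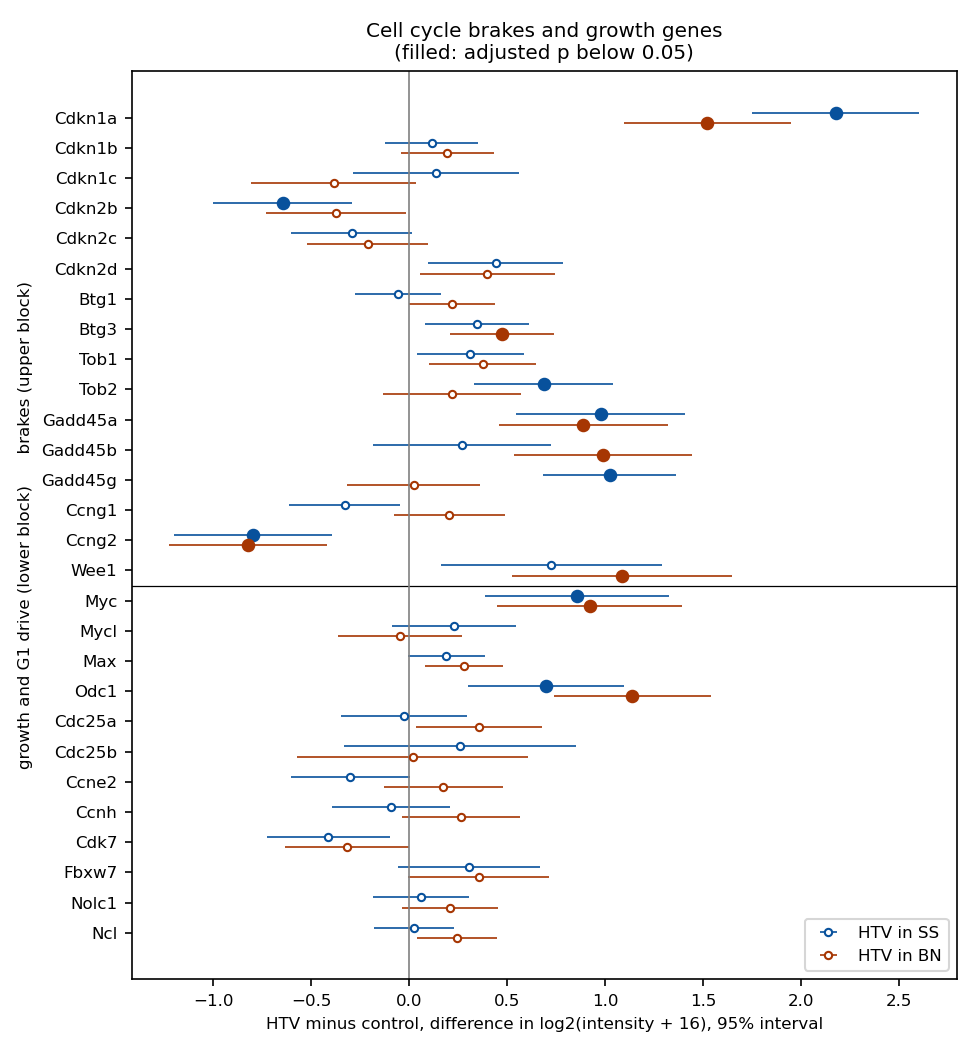
HTV minus control differences in log2(intensity + 16) with 95% intervals in SS and BN for 16 tested brakes (upper block) and 12 tested growth and G1 genes (lower block), filled where the adjusted p was below 0.05. Cdkn1a lies farthest right in both strains at 2.18 and 1.52, with Myc, Odc1 and Gadd45a filled in both and Ccng2 filled on the left in both.

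Among 12 tested genes of growth and G1 drive, 3 rose and 1 fell in the average (median 0.14), where 6.84% of all tested genes rose and 8.66% fell. Myc, a transcription factor of growth, rose by 0.89 ± 0.15 (adjusted p = 0.00175), from 106.8, 161.4 and 104.5 to 225.8, 164.5 and 339.8 in SS and from 114.5, 142.5 and 152.1 to 253.3, 302.3 and 258.6 in BN, with no overlap in either strain. Odc1, ornithine decarboxylase of polyamine synthesis, rose by 0.92 ± 0.13 (adjusted p = 0.00043). Max, the partner of Myc, rose by 0.23 ± 0.06 and Cdk7, a kinase that activates other cyclin-dependent kinases, fell by 0.36 ± 0.10 on the log2 scale (adjusted p = 0.0263 and 0.0294), each losing its call in 7 of 12 fits with 1 array left out.

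Of 17 further licensing and fork genes, 1 rose and 1 fell in the average (median 0.13), against 6.84% and 8.66% of all tested genes. Fen1, the flap nuclease that matures lagging-strand fragments and a partner of Pcna, had 70.0, 65.7 and 59.9 in SS control and 105.2, 91.6 and 96.6 in SS HTV, and 81.1, 59.8 and 64.7 in BN control and 133.8, 156.5 and 110.6 in BN HTV. All HTV arrays lay above all controls, and Fen1 rose by 0.65 ± 0.10 (adjusted p = 0.000774), in every alternative tried. Pola2, the regulatory subunit of DNA polymerase alpha, fell by 0.53 ± 0.15 on the log2 scale (adjusted p = 0.0324), a call lost without BN control 1, BN control 2, SS HTV 1, SS HTV 3 or SS control 2.

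Of 16 further genes of mitosis none passed in the average by limma, where 6.84% of all tested genes rose and 8.66% fell. There 4 of 16 had an unadjusted p below 0.05, against 30% of all genes, and the median was 0.17. In SS 1 of 16 was called higher, against 3.91% of all genes. That gene was Mybl2, the B-Myb factor that switches on mitotic genes, at 6.8, 38.0 and 7.4 in SS control and 79.1, 71.7 and 85.7 in SS HTV. In BN it was already at 83.9, 38.3 and 107.2 in control and at 59.6, 53.9 and 55.4 in HTV. The SS control mean, 17.4, is below the intensity limit for testing, which the probe set met only through the other groups. The Mybl2 call is therefore not read as a result, and no size is given. Among 11 E2F and pocket protein genes 1 fell and none rose in the average, against 8.66% and 6.84% of all tested genes. It was Rbl2, the retinoblastoma relative p130 of resting cells, which fell by 0.35 ± 0.10 on the log2 scale (limma adjusted p = 0.0234). That call was lost without BN control 1, SS HTV 1, SS HTV 3 or SS control 2.

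The 6 dim genes are described by level only. Bub1 ranged from 25.1 to 53.9, Cdc20 from 23.1 to 43.1, Aurka from 19.4 to 50, Ccna2 from 11.5 to 47.2, Ccne1 from 4.4 to 39.6 and Bub1b from 4.1 to 26.9, where the limit for testing was a mean of about 42.2. Aurka, the Aurora kinase of the spindle poles, had 31.0 ± 0.681 (SD, n = 3) in SS control and 25.4 ± 9.30 in BN control. Ccna2, cyclin A of S phase, had its highest value, 47.2, on BN HTV 2, as did Bub1b and Aurka.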

How the data were processed

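Right lungs of 12 rats were measured on 12 arrays, in 4 groups of 3 named by the labels. The labels name each animal separately, without a batch, so p-values reflect only how these animals differed. The deposited values are linear intensity, 1 per probe set. MAS5 is named in the submitters' processing notes, and its version and settings are not stated in the sources used here. The trimmed mean was 150 on every array, so the deposited scaling was kept. Precision is limited by the number of arrays. Detection calls were not used.

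Of 31099 probe sets, 57 were controls. The platform annotation named 1 gene for 20826, several for 436 and none for 9780. After the transform log2(intensity + 16), those whose mean reached the 40th percentile were tested (18625 probe sets, 10554 genes). A limma model (version 3.58.1, R 4.3.3) held the 4 group means, with lmFit and eBayes(trend = TRUE) and 8 residual degrees of freedom. Benjamini-Hochberg adjustment covered all tested probe sets in each of 6 comparisons, with a threshold of 0.05. The model was also run on simulated data with independent noise and known changes in SS HTV. Those data held no array effects and no correlation between genes. A gene was read from its brightest probe set.

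All 36 genes are described, those past the test with every array's value; of 5 wider lists, up to 4 genes per comparison with the smallest p among those past the test, and further genes where a result turns on them. The genes and lists were chosen with earlier results of these data known. Alternatives were pseudocounts of 1 and 64, no filter or the 60th percentile, quantile normalization, median centring, no trend, array weights, the beta-actin ratio as a covariate, only the arrays compared, the mean over probe sets, SS control 3 and BN HTV 3 left out together, and each array left out in turn. Promoter windows came from RefSeq (GRCr8). Correlations between genes used deviations from group means.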

Additional observations from a re-analysis of the deposited data

How the results depend on the processing

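No paired analysis was possible because the groups share no animal numbers. The count of cell cycle genes called for HTV in SS was 0, and it was 1 with array weights and 0 to 1 with single arrays left out. In BN it was 1, and it was 0 without an intensity trend, with median centring or with no filter, and 0 to 1 with single arrays left out. In the average it was 2, with 4 under array weights, 1 with the filter at the 60th percentile, 1 with median centring, and 0 to 3 with single arrays left out. For BN minus SS in control lungs it was 2, with 1 over the mean of a gene's probe sets, 1 with no filter and 1 with only the arrays compared, and 1 to 3 with single arrays left out. For BN minus SS in HTV lungs it was 2, with 1 in each of 4 alternatives (SS control 3 and BN HTV 3 left out together, the beta-actin covariate, median centring, only the arrays compared) and 1 to 3 with single arrays left out. The interaction count was 0 in all 23 alternatives. Aurkb was among the called genes in every strain comparison listed. The median strain difference in HTV lungs was -0.10, and with single arrays left out it ran from -0.302 to 0.03. The other 5 median differences moved by less than the spread between arrays, 0.199, which is larger than each of them, so their signs could still change. The BN HTV median was -0.035 with the filter at the 60th percentile and -0.046 without BN HTV 2. The interaction median was 0.048 and ran from -0.129 to 0.137 with single arrays left out. With only the bases before the start, the shares of all promoters were 34% for CCAAT, 16.2% for TTTGAA and 1.73% for the E2F class, and those of the 27 matched genes 70.4%, 29.6% and 22.2%. The cause of these changes was not tested. The 6 of 34 genes below the intensity limit were not tested, and log2(intensity + 16) understates changes of dim probe sets.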
